A study of Mus musculus with 6 samples.

Results

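The genes described here are 38 that encode parts of the sarcomere, the contractile unit of skeletal and heart muscle. They were taken by symbol from a table of 23233 gene lines measured in dissected mouse embryonic gut, and each symbol stood on 1 line of its own. The groups were 3 wildtype samples and 3 Ret null samples, the latter homozygous null for Ret, a receptor tyrosine kinase that the neural crest cells of the gut need. All came from stage E10.5, carry the strain label C57BL/6J and are described by the series as male. The labels give no further detail of the null allele, and they do not say whether a sample was 1 embryo or a pool.

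In the sarcomere, thin filaments of alpha-actin, tropomyosin and the troponin complex slide along thick filaments of myosin. Alpha-actinin anchors the thin filaments at the Z-disc, the M-band links the thick filaments, and titin spans from the Z-disc to the M-band. Most of these proteins exist as isoforms made by separate genes for fast fibres, slow fibres, embryonic fibres or the heart. The muscle of the gut wall is smooth muscle, which has no sarcomeres. At this stage of development, striated muscle lies in the heart and in the myotomes of the somites, and the mouse oesophagus acquires its striated muscle later.

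The measurement was FPKM, a fragment count scaled for the length of the transcript and the size of the library, and the authors' table holds 1 such value per genotype. Values of single samples are not in it, so their spread cannot be given, and the depth is unknown. Errors after ± are standard errors of the log2 fold change (Ret null over wildtype) implied by the authors' test statistic. A gene is said to fall or rise only where the q-value in the authors' deposited table was under 0.05. Ret went from 8.80 FPKM in wildtype to 0.0354 FPKM in Ret null gut. Xist, an RNA of female cells, went from 0.136 to 31.8 FPKM. The Y-linked genes Kdm5d, Eif2s3y, Uty and Ddx3y went from 13.7, 29.7, 6.47 and 18.3 FPKM to 7.25, 18.1, 3.25 and 10.6 FPKM. The sex-linked genes were named with their values known. They stand beside a series described as male. Xist rose and the Y-linked genes fell, at q = 0.000775 for each in the authors' deposited table. The male description thus does not hold for all Ret null material, and sex differs in part with genotype. How sex bears on the sarcomere genes was not tested.

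Most tested sarcomere genes fell in Ret null gut, among them the leading actin, troponin, myosin and alpha-actinin genes. Those that did not pass were Tnni2, Tnnt3 and Mybph of skeletal muscle, Tnni3 and Myl7 of the heart, Myom1 and Smpx of all striated muscle, and the tropomyosins Tpm1 and Tpm2. Of 38 members, 28 had been tested by the authors. Of these, 19 fell, 0 rose and 9 did not pass in the authors' Cuffdiff test, beside 8.88% of all 13430 tested lines that fell and 5.69% that rose. The falls ran from 3.11-fold for Unc45b to 21.5-fold for Tnnc2, with Myoz2 listed at 0 in Ret null gut. In such bulk samples, fewer muscle cells and less RNA per muscle cell cannot be told apart. At least a 2-fold fall was seen in 19 members (2.59% of all tested lines) and at least a 4-fold fall in 17 (0.64% of all tested lines). At an unadjusted p under 0.05, 20 members were lower and 0 higher (13.5% and 9.91% of all tested lines). At q under 0.01 the counts were 17 and 0 (6.1% and 3.72% of all tested lines), and at q under 0.1 they were 19 and 0 (10.6% and 6.96%). With p computed from the test statistic instead, read as a standard normal value, and adjusted, they were 16 and 0 (2.78% and 1.72%). With at least 5 FPKM in a genotype, 13 fell (7.31% of such lines). After adding 1 FPKM to both values, the median log2 fold change was -1.49 over the tested members and 0.01 over all tested lines.

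The tested set leaned on the wildtype value. Lines had mostly been tested where they reached about 1 FPKM in a genotype, and 11 of the 28 tested members were under 1 FPKM in Ret null gut while 0 were under it in wildtype. Such members reached 1 FPKM only through their wildtype value, and 9 of these 11 fell. Among the other 17 members, at 1 FPKM or more in both genotypes, 10 fell, 0 rose and 7 did not pass, beside 7.78% and 5.03% of 12603 such lines that fell and rose. Counting every member, tested or not, 36 of 38 values were lower in Ret null gut, and the others, Tnni3 and Tpm1, were slightly higher. Over all 18695 lines above 0, 50.7% of values were lower.

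**Figure D1:**
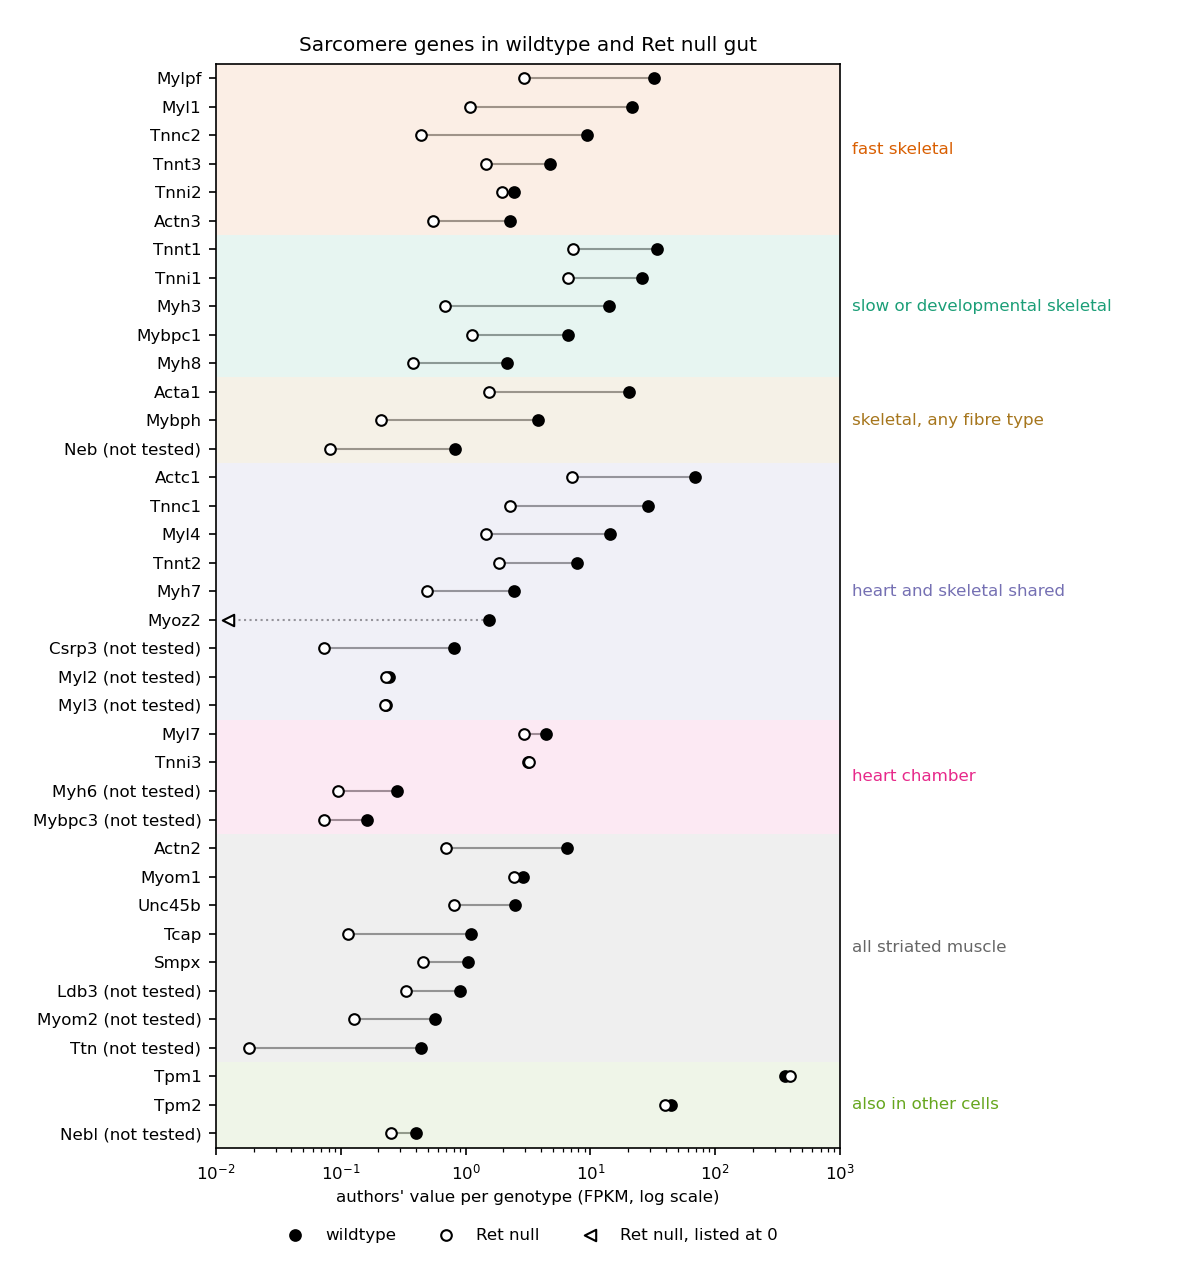
The authors' FPKM value of each of the 38 sarcomere genes in wildtype (filled) and Ret null gut (open) on a log axis, grouped by the isoform class of the gene. The open points lie far to the left of the filled ones for most skeletal and shared genes, from 69.4 to 7.17 FPKM for Actc1, and almost on them for Tnni3, Tnni2, Myom1, Tpm1 and Tpm2. The triangle marks Myoz2, listed at 0.

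In the thin filament, both striated alpha-actins fell. Actc1, the cardiac alpha-actin that embryonic skeletal muscle also makes, was the most abundant member after Tpm1 in wildtype gut and went from 69.4 to 7.17 FPKM (log2 fold change -3.28 ± 0.25). Acta1, the skeletal alpha-actin, went from 20.4 to 1.54 FPKM (-3.72 ± 0.46). The Acta1 line spans exactly the annotated gene at chr8:123891758-123894775 (mm10). The summed alpha-actin message was 10.3-fold lower, from 89.9 to 8.71 FPKM, with Actc1 as 77.3% of it in wildtype and 82.3% in Ret null gut.

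Because both alpha-actins moved together, the 250 bases before their annotated starts are shown here, with those of Myl7, an atrial myosin light chain that did not pass the test. They come from RefSeq (GRCm38.p6, the build also called mm10), run 5′ to 3′ on the strand of each gene, and end at the base before the start. Capitals mark the E-box (CANNTG), which myogenic factors such as MyoD and myogenin can bind, and the CArG box, which serum response factor can bind.
Acta1, chr8:123894776-123895025, minus strand: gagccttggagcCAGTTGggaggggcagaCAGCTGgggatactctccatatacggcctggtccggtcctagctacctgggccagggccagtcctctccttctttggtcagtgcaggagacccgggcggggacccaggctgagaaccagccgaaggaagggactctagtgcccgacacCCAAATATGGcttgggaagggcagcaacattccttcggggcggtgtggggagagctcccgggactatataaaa
Actc1, chr2:114052876-114053125, minus strand: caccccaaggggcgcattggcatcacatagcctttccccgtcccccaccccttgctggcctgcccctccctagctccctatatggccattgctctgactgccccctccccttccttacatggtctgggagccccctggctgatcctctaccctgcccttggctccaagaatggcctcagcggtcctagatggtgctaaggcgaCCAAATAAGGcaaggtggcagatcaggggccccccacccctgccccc
Myl7, chr11:5898783-5899032, minus strand: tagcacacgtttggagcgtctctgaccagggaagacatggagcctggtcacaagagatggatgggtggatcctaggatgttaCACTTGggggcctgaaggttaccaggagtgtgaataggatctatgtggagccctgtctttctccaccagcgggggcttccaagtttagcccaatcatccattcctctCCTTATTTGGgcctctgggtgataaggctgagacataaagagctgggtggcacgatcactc

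The CArG box lay 73 to 64 bases before the start in Acta1, 47 to 38 bases before it in Actc1 and 61 to 52 bases before it in Myl7. Acta1 had 2 E-boxes in this window, Myl7 had 1 and Actc1 had none of these letters. RefSeq windows were found for 32 of the 38 members, 41 windows in all, since some genes have several starts. A CArG box was found on either strand in 8 of these 41 windows (19.5%), against 1.47% of all 32851 windows of this length. It was in 2 of 20 windows of members that fell and in 2 of 7 windows of tested members that did not pass, so the match was not limited to the genes that fell. The other matches were in members that had not been tested, among them overlapping windows of Ldb3. An E-box was found in 18 of 20 windows of members that fell (90.0%), 6 of 7 of those that did not pass (85.7%) and 66.2% of all windows. The MEF2 site was in 2 of 20, 0 of 7 and 2.92% of them. These matches describe the letters only.

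Troponin, the calcium switch of the thin filament, has a calcium-binding subunit (C), an inhibitory subunit (I) and a tropomyosin-binding subunit (T). Both troponin C genes fell. Tnnc1, the form of slow fibres and heart, went from 29.0 to 2.27 FPKM (-3.68 ± 0.42). Tnnc2, the fast form, went from 9.46 to 0.440 FPKM (-4.43 ± 0.77, q = 0.00372 in the authors' deposited table). Their sum was 14.2-fold lower in Ret null gut. Of the 75-base windows of the Tnnc2 transcript, 40.6% also occur in transcripts of Ube2c, so its value is less certain.

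Among the troponin I genes the calls differed. Tnni1, the slow and embryonic form, fell from 25.8 to 6.59 FPKM (-1.97 ± 0.34). Tnni2, the fast form, stood at 2.43 and 1.97 FPKM (-0.30 ± 0.58) and Tnni3, the heart form, at 3.16 and 3.21 FPKM (0.02 ± 0.48), and neither passed. Their q-values were 0.765 and 0.983 in the authors' deposited table. The share of Tnni3 in the summed troponin I message was 10.1% in wildtype and 27.3% in Ret null gut, that of Tnni2 was 7.74% and 16.7%, and that of Tnni1 82.2% and 56.0%. These shares are descriptions of 1 value per genotype and were not tested.

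Of the troponin T genes, Tnnt1, the slow form, fell from 34.1 to 7.28 FPKM (-2.23 ± 0.29) and Tnnt2, the heart form that embryonic skeletal muscle also makes, from 7.86 to 1.85 FPKM (-2.09 ± 0.55). Tnnt3, the fast form, stood at 4.76 and 1.46 FPKM and did not pass (-1.71 ± 1.98, q = 0.231 in the authors' deposited table). Its line runs over the neighbouring gene Lsp1, listed on a line of its own at 72.3 and 82.6 FPKM, so its value is uncertain. Tnnt1 was 73.0% of the summed troponin T message in wildtype and 68.7% in Ret null gut.

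Tropomyosin, the coiled coil that lies along actin, showed no call. Tpm1 had 364 FPKM in wildtype gut and 397 FPKM in gut null for Ret (0.12 ± 0.21), and Tpm2 had 43.9 and 39.4 FPKM (-0.16 ± 0.18). In the authors' deposited table neither passed, at q = 0.61 for Tpm1 and q = 0.433 for Tpm2. Smooth muscle and other cells make these genes too, and together they held most of the sarcomere list's summed FPKM. Neb, which encodes the giant thin filament protein nebulin of skeletal muscle, was listed at 0.817 and 0.0821 FPKM and had not been tested.

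Troponin genes lie in the genome as neighbours, a troponin I beside a troponin T, and members of a pair did not always get the same call. Tnnt1 (chr7:4504569-4515975) and Tnni3 (chr7:4518305-4522718) are 2.33 kb apart in RefSeq, and Tnnt1 fell while Tnni3 did not pass. Tnni1 and Tnnt2 are 25.3 kb apart on chromosome 1, and both fell. Tnni2 and Tnnt3 are 54.4 kb apart on chromosome 7, and neither passed. The difference within a pair could not be tested, since the table has no values per sample. The upstream windows of the closest pair, with E-boxes in capitals, are given because this pair has the shortest gap of the 3 and different calls. The RefSeq window of Tnni3 precedes a start that lies inside the gene's full span.
Tnnt1, chr7:4515976-4516225, minus strand: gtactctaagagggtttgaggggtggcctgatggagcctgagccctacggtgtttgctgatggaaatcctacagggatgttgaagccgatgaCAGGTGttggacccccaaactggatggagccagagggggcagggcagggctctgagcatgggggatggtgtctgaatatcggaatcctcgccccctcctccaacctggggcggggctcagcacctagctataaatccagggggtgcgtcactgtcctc
Tnni3, chr7:4522529-4522778, minus strand: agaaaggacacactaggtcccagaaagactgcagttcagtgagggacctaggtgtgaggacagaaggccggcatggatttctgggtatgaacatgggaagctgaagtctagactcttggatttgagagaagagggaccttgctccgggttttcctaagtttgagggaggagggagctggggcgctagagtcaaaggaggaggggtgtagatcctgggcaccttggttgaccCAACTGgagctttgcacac

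Each of these windows holds 1 E-box and no CArG box. That of Tnnt1 lies 158 to 153 bases before the start and that of Tnni3 19 to 14 bases before it.

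In the thick filament, 7 of 9 tested genes fell by at least 4-fold, beside 0.64% of all tested lines. They included each of the 3 tested myosin heavy chains. Myh3, the embryonic heavy chain, was the leading form and fell from 14.0 to 0.686 FPKM (-4.35 ± 0.37). Myh7, the heavy chain of slow fibres and ventricle, fell from 2.42 to 0.490 FPKM (-2.31 ± 0.45), and Myh8, the perinatal form, from 2.16 to 0.381 FPKM (-2.51 ± 0.47). Myh6, the atrial heavy chain, was listed at 0.282 and 0.0951 FPKM, on a line that overlaps the gene Cmtm5, and had not been tested. Myh3 made up 74.2% of the summed heavy chain message in wildtype and 41.5% in Ret null gut, as the sum went from 18.9 to 1.65 FPKM. Myh6 and Myh7 lie 2.67 kb apart on chromosome 14. Of the 75-base windows of their transcripts, 15.5% and 19.7% occur in another gene's transcripts, mainly each other's, so their values are less certain. The share was 12.9% for Myh8, with other heavy chain genes of skeletal muscle.

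Of the myosin light chains, Mylpf, Myl1 and Myl4 fell, Myl7 did not pass, and Myl2 and Myl3 had not been tested. Mylpf, the regulatory light chain of fast fibres, fell from 32.5 to 2.95 FPKM (-3.46 ± 0.39), on a line that overlaps the gene Septin1. Myl1, the essential light chain of fast fibres, fell from 21.5 to 1.09 FPKM (-4.30 ± 0.70), and Myl4, the embryonic and atrial one, from 14.5 to 1.46 FPKM (-3.31 ± 0.48). Of the windows of Myl1, 16.6% also occur in the pseudogene Mylf-ps. Myl7, the atrial regulatory light chain, stood at 4.43 and 2.96 FPKM (-0.58 ± 0.48, q = 0.366 in the authors' deposited table). Myl2 and Myl3, the light chains of ventricle and slow fibres, stood at 0.242 and 0.231 FPKM and at 0.232 and 0.226 FPKM. Myl7 made up 11.9% of the regulatory light chain message in wildtype and 48.2% in Ret null gut, where Mylpf was 48.1%. Of the essential light chain message, Myl1 was 59.4% in wildtype and 39.2% in Ret null gut, where Myl4 was 52.6%.

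Among the myosin binding proteins, which lie along the thick filament, Mybpc1 of slow fibres fell from 6.59 to 1.12 FPKM (-2.56 ± 0.38). Mybpc3 of the heart was listed at 0.163 and 0.0734 FPKM and had not been tested. Mybph stood at 3.81 and 0.209 FPKM, 18.2-fold apart, yet did not pass (-4.18 ± 2.16, q = 0.237 in the authors' deposited table). Its line runs over Adora1, and 42.1% of the 75-base windows of its longest transcript also occur in transcripts of that gene.

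**Figure D2:**
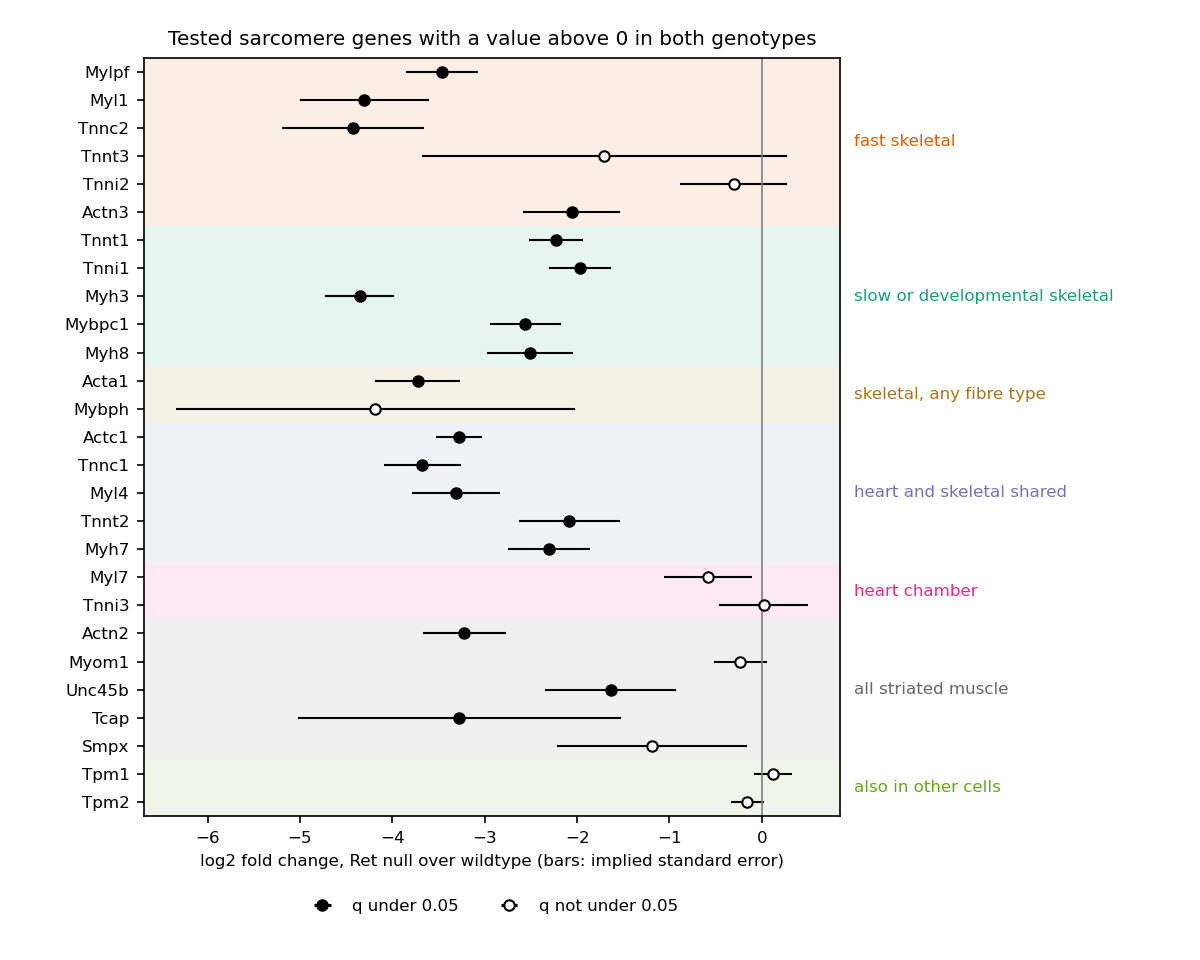
Log2 fold change (Ret null over wildtype) of the 27 tested sarcomere genes above 0 in both genotypes, with the implied standard error as bars. Filled points passed q under 0.05. Slow or developmental and shared genes lie between -1.97 and -4.35, while Tnni3, Myl7, Tnni2, Myom1, Tpm1 and Tpm2 lie within 0.6 of 0.

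At the Z-disc, both sarcomeric alpha-actinins fell. Actn2, of all striated fibres, went from 6.50 to 0.696 FPKM (-3.22 ± 0.45) and Actn3, of fast fibres, from 2.29 to 0.549 FPKM (-2.06 ± 0.52). Actn2 was 74.0% of their summed message in wildtype and 55.9% in Ret null gut. Tcap, which encodes the titin cap telethonin, fell from 1.10 to 0.113 FPKM (-3.27 ± 1.75, q = 0.0309 in the authors' deposited table). Myoz2, a calcineurin-binding Z-disc protein of slow fibres and heart, stood at 1.55 FPKM in wildtype and was listed at 0 in Ret null gut, so no fold is given. The Z-disc genes Csrp3, Ldb3 and Nebl had not been tested, at 0.814 and 0.0736, 0.904 and 0.332, and 0.404 and 0.255 FPKM. Smpx, a small protein of striated muscle, stood at 1.05 and 0.459 FPKM and did not pass (-1.19 ± 1.03, q = 0.129 in the authors' deposited table).

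The M-band gene Myom1 did not pass. It stood at 2.87 and 2.44 FPKM (-0.23 ± 0.29, q = 0.433 in the authors' deposited table), and its relative Myom2 had not been tested, at 0.564 and 0.128 FPKM. Ttn, the titin gene, had not been tested either, at 0.443 and 0.0184 FPKM, 24.1-fold apart. Unc45b, a chaperone that folds myosin in striated muscle, fell from 2.49 to 0.801 FPKM (-1.64 ± 0.71, q = 0.0271 in the authors' deposited table), on a line that runs over Slfn5. The calls of Tcap and Unc45b were the only ones among members that ended at q under 0.01. Every other fall had q = 0.000775 in the authors' deposited table, the smallest there, except that of Tnnc2.

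Grouped by fibre type, 4 of 6 tested fast skeletal genes fell and 5 of 5 slow or developmental skeletal genes fell. Of genes shared by heart and slow or embryonic skeletal muscle, 6 of 6 tested fell, and 3 had not been tested. Of genes of any skeletal fibre 1 of 2 tested fell, of genes of all striated muscle 3 of 5, and of those also made by other cells 0 of 2. Of the 4 heart chamber genes (Tnni3, Myl7, Myh6 and Mybpc3), 2 had been tested and 0 passed, also at an unadjusted p under 0.05 and with p taken from the test statistic. The background for each of these counts is the 8.88% of all tested lines that fell. The summed message was 8.63-fold lower for fast skeletal genes (73.0 to 8.45 FPKM), 5.14-fold lower for slow or developmental genes (82.6 to 16.1 FPKM) and 9.16-fold lower for shared genes (126 to 13.8 FPKM). For the heart chamber genes the sums were 8.03 and 6.33 FPKM. The differences between these classes were not tested.

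**Figure D3:**
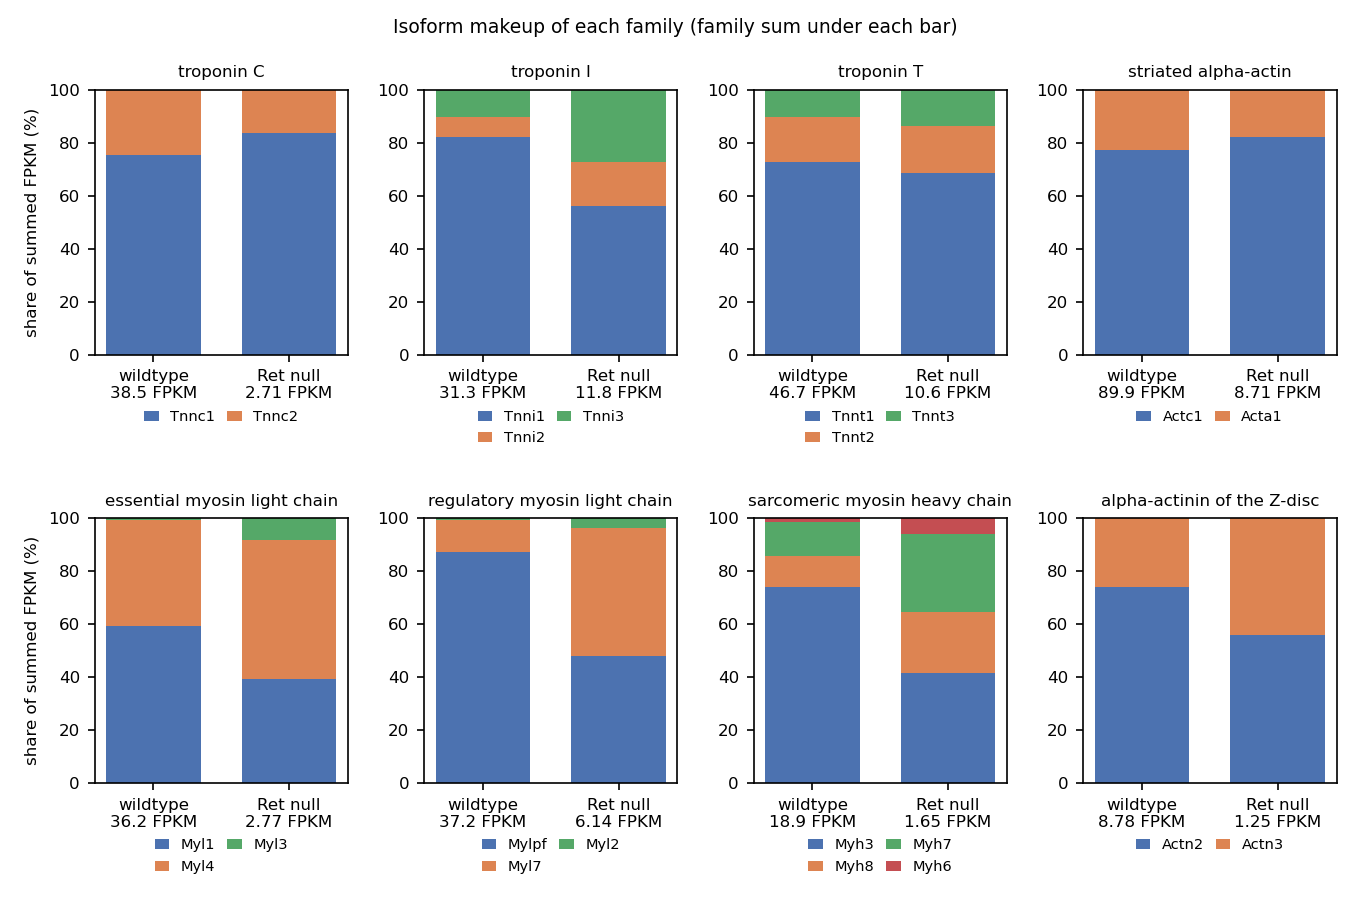
Share of each isoform in the summed FPKM of its family, in percent, in wildtype and Ret null gut, with the family's sum under each bar. The sums of the 8 families drawn are lower in Ret null gut, and among the shares that are larger there are those of Tnni2 (7.74% to 16.7%), Tnni3 (10.1% to 27.3%) and Myl7 (11.9% to 48.2%).

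Genes of skeletal muscle outside the sarcomere moved in the same direction. Like the sarcomere genes and the other lists, this list was chosen with earlier results of these data known, so its counts are descriptions. Of 18 tested members of that list, 15 fell, 0 rose and 3 did not pass in the authors' Cuffdiff test, beside 8.88% of all tested lines that fell and 5.69% that rose. At an unadjusted p under 0.05 the counts were again 15 and 0, beside 13.5% and 9.91%. Of the 18, 10 were under 1 FPKM in Ret null gut and 0 in wildtype, so that they reached it only through wildtype, and 9 of these 10 fell. Myog and Myod1, the transcription factors that drive muscle differentiation, fell from 17.0 to 1.07 FPKM (-3.99 ± 0.48) and from 4.79 to 0.456 FPKM (-3.39 ± 0.61). Arpp21 and Chrna1, the alpha subunit of the muscle acetylcholine receptor, fell to 0.0995 FPKM from 1.46 FPKM and to 0.135 FPKM from 1.07 FPKM. The 3 that did not pass were Cacnb1 and Six4, both with a log2 fold change of -0.29, and Tmem8c, named after its value was seen, with 3.28 and 0.0969 FPKM (-5.08 ± 2.09, q = 0.449 in the authors' deposited table). The list's summed value went from 81.9 to 27.2 FPKM, with Myf6 listed at 0 in wildtype and Cacng1 and Hfe2 in Ret null gut.

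Genes of somite and sclerotome, tissue beside the gut, were lower in part. Not all of them are limited to that tissue, and Nkx3-2 is 1 that is not. Of 12 tested, 6 fell and 1 rose (Nkx3-2, named after its value was seen), beside the same 8.88% and 5.69% of all tested lines. Of the 12, 4 were under 1 FPKM in Ret null gut and 0 in wildtype, and 3 of these 4 fell, Pax1 among them. The list had summed values of 68.5 and 43.1 FPKM and Lbx1 listed at 0 in wildtype. The log2 fold changes were -3.15 for Pax1, -1.91 for Meox1, -1.18 for Tbx18 and -0.94 for Foxc2, while Scx and Tcf15 stood at -0.43 and -0.02 and did not pass. How far somite tissue in the dissected samples bears on the sarcomere genes was not tested.

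Heart genes outside the sarcomere went both ways. Of 15 tested, 6 fell, 3 rose and 6 did not pass, beside 8.88% and 5.69% of all tested lines that fell and rose. Of the 15, 3 were under 1 FPKM in Ret null gut, and 1 of these fell (Corin). The summed values were 178 and 154 FPKM, led by Tbx2 (38.5 and 21.6 FPKM, named after its value was seen) and Hand1 (36.1 and 41.3 FPKM). Neither gene is limited to the heart, so the sum is not a measure of heart tissue. Smyd1, a muscle methyltransferase, and Corin had log2 fold changes of -1.86 and -1.63, while Nkx2-5 and Myocd rose by 2.14 and 0.98. Smyd1 is expressed by skeletal muscle and Nkx2-5 and Myocd by gut mesenchyme or smooth muscle as well. Hand1 (0.19) and Gata6 (-0.28) did not pass. The defining heart genes Nppa and Nppb, named after their values were seen, had not been tested, at 0.251 and 0.230 FPKM for the first and 0.0931 and 0.0508 FPKM for the second. Bmp10 was listed at 0 in wildtype and Irx4 in Ret null gut. Heart tissue's part in the values of Tnni3 and Myl7 was not tested.

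Muscle fibre genes that are not members, not all of them limited to striated muscle, fell, rose or did not pass. Of 26 tested genes of sarcomere assembly, Z-disc and fibre metabolism, 12 fell (46.2%), 4 rose (15.4%) and 10 did not pass, beside 8.88% and 5.69% of all tested lines that fell and rose. Of the 26, 11 were under 1 FPKM in Ret null gut, and 7 of these fell. In wildtype 2 were under 1 FPKM, and 1 of these rose (Tmod4, at 0.819 FPKM there). The log2 fold changes were -3.03 for the M-band gene Myom3, -2.56 for Casq2, which encodes the calcium store protein calsequestrin, -2.54 for Klhl41 and -2.35 for Synpo2l. The 4 that rose were Tmod4 (3.25-fold), Pdlim3 (3.21-fold), Jph2 (1.57-fold) and Nexn (1.55-fold), all named after their values were seen. The most abundant members that did not pass, Cfl2 and Obsl1, stood at 40.8 and 41.5 FPKM and at 34.6 and 35.9 FPKM.

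The smooth muscle and non-muscle relatives of the members mostly rose or did not pass. Of 20 tested actins, myosins, tropomyosins, alpha-actinins and relatives of muscle LIM and chaperone genes in those cells, 7 rose, 12 did not pass and 1 fell (Myl6b, named after its value was seen). Over all tested lines 5.69% rose and 8.88% fell, and the list's median log2 fold change after adding 1 FPKM was 0.14. The smooth muscle genes Myh11, Acta2 and Myl9 rose by 2.07, 1.04 and 0.78 on the log2 scale, and Actg2 rose 2.83-fold. The cytoplasmic actins Actg1 (0.13) and Actb (0.14) did not pass. Of 14 tested visceral smooth muscle genes, the muscle the gut wall is known for, 11 rose and 1 fell (Itga8, named after its value was seen), beside the same background, and the list's sum went from 525 to 949 FPKM with no gene at 0. Among them Lmod1 and Mylk rose by 1.63 and 1.47 on the log2 scale, and Tagln (0.29) and Ppp1r14a (0.39) did not pass. Acta2, Actg2, Myh11 and Myl9 belong to both the relatives and the smooth muscle list, and their rises are counted in each. Genes of the liver, another neighbouring organ, summed to 36.99 and 362.8 FPKM, and 13 of 14 tested rose beside 5.69% of all tested lines. Not all of them are limited to the liver. The rise was led by Alb (168-fold), Afp (31.7-fold), Itih2 (29.2-fold) and Apoa2 (18.8-fold), while Prox1 (-0.54) did not pass. Of the 14, 5 were under 1 FPKM in wildtype, Alb and Itih2 among them. These 5 reached it only through Ret null gut, and 5 of 5 rose. Whether a different extent of dissection moved these lists was not tested.

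**Figure D4:**
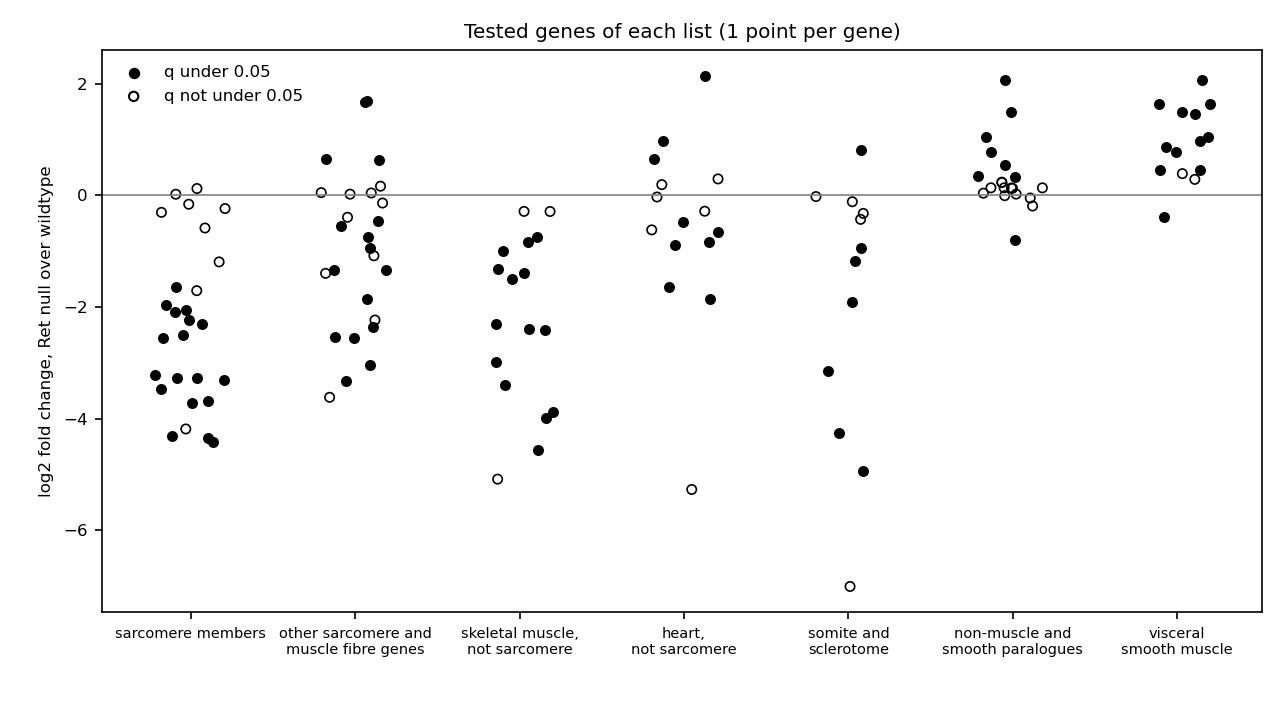
Log2 fold change (Ret null over wildtype) of each tested gene above 0 in both genotypes, for the sarcomere genes and 6 lists of other muscle and neighbouring genes. Each column has 1 point per gene, and a gene that stands in several lists is drawn in each. Filled points passed q under 0.05. The sarcomere and skeletal muscle columns lie mostly under 0 and the smooth muscle column mostly above it.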

How the data were processed

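Polyadenylated RNA of dissected gut was sequenced from TruSeq libraries, per the labels' protocols, as paired reads of 75 bases. The submitters' processing notes name mm10 as the build and the tools Picard, TopHat2, Cufflinks and Cuffdiff. Their versions and settings are not given in the material used here. A single gene table in Cuffdiff's layout was used. The deposited table holds 1 FPKM value per genotype. Its p-value and q-value columns and its test statistic, a score, are the authors' own, per the file headers. The columns name the genotypes by the letters w and h, read here as wildtype and homozygous null.

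Of the deposited lines, 1 with 2 records run together was not used. Log2 fold changes were recomputed from FPKM, and the implied standard error is the log2 fold change divided by the test statistic. File starts count from 0 and were raised by 1. For 6 members the line's coordinates equalled the RefSeq gene (GRCm38.p6). No counts are in the table, so no counting intervals are given, and with 1 value per genotype no test over samples could be run. The 3 samples of a genotype act on the results through the authors' statistic alone, and the labels do not say that they came from separate litters, so the authors' p-values may measure technical spread. As an alternative, p was computed by treating the test statistic as a standard normal deviate, with Benjamini-Hochberg adjustment over the tested lines (scipy 1.17.1, checked on simulated data).

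Shared reads were described as the share of 75-base windows of each member's longest coding GENCODE transcript that occur, on either strand, in another gene's transcripts. The share was 0 for 27 members and over 10% for 6. All members are reported. From each of 7 lists of other genes, up to 4 called genes by smallest q and then largest change and the 2 most abundant uncalled genes are named, and others are said to be named after their values were seen. Some genes stand in more than 1 of these lists and are counted in each. Besides the smooth muscle genes named above, these are Smyd1 and Ankrd1 (fibre and heart) and Myocd (heart and smooth muscle). The members and lists were chosen with earlier results of these data known.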

Additional observations from a re-analysis of the deposited data

How the results depend on the processing

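The count of 19 sarcomere genes lower in Ret null gut was 17 at q under 0.01, 19 at q under 0.1, 19 with a 1.5-fold minimum, 13 with a minimum of 5 FPKM in a genotype and 16 with p taken from the test statistic, which Myoz2 lacks. The last compares with 2.78% of 13422 tested lines. The count of higher members stayed at 0 in these settings. The 3 falls among genes of all striated muscle became 1 (Actn2) at q under 0.01, with a minimum of 5 FPKM and with p from the test statistic. The median log2 fold change of -1.49 was -2.22 with 0.1 FPKM added and -2.31 with nothing added. The sum over members was 1.51-fold lower, and 6.43-fold lower without Tpm1, Tpm2 and Nebl. Members stand on lines of 1 symbol, so leaving out merged lines changed nothing. The lines of Tnnt3, Myh6, Mylpf, Mybph and Unc45b still overlap another coding gene, and this setting did not leave them out. No paired analysis was possible because the table holds 1 value per genotype, and leaving out a replicate was not run for the same reason. Depth is unknown, and values under 1 FPKM are the least certain.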

Other observations

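Ttn and Neb, which encode the giant proteins titin and nebulin, lay outside the authors' tested set although their transcripts are long. FPKM divides by transcript length, so the fragments behind a value can be gauged by multiplying it back. With the longest coding GENCODE transcript, 106824 bases for Ttn, its 0.443 FPKM in wildtype corresponds to an FPKM times kilobases of 47.3, and its 0.0184 FPKM in Ret null gut to 1.97. Only 4 of 38 members had a higher wildtype estimate than Ttn, and 17 of the 19 members that fell had a lower one. For Neb, with 22489 bases, the estimates were 18.4 and 1.85 in the same unit, the first above 9 of the 19 members that fell. Shorter transcripts in use would lower these estimates, and no test of Ttn or Neb is in the authors' deposited table.

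Transcripts of Tnnc2 overlap in sequence with Ube2c over 40.6% of their 75-base windows, and those of Myl1 with the pseudogene Mylf-ps over 16.6%. Fragments from these stretches can be assigned to either gene, and how the authors' software divided them is not given in the sources used here.

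Sln, which encodes the calcium pump regulator sarcolipin of atrium and skeletal muscle and was named after its value was seen, went from 6.66 to 0.173 FPKM, a ratio of 38.5. It did not pass, with q = 0.589 in the authors' deposited table and a log2 fold change of -5.27 ± 1.45. Mybph, also far apart without passing, had a wider error beside its log2 fold change (-4.18 ± 2.16). The q of Sln is thus high for so small an error beside its fold change. Such a mismatch was not limited to Sln. In the authors' Cuffdiff test Tnnc2 had a test statistic of -5.79 and p = 0.0003, while Tnnt2 had -3.81 and p = 5e-05. The implied errors are thus not the measure behind the calls. The reason is not given in the sources used here.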
